A study of Mus musculus with 14 samples.

Results

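Integrins are cell-surface receptors made of 1 alpha and 1 beta chain, and laminins are basement membrane proteins made of 1 alpha, 1 beta and 1 gamma chain. The genes described here are those whose symbol starts with Itga or Itgb (a digit, or d, e, l, m, v or x, next) or with Lama, Lamb or Lamc and a digit, and they were chosen by name and not by any measured value. The rule took 54 of 55482 probes and 40 of 20610 named genes on the array. They comprise 24 integrin chains, 11 laminin chains and 5 other names that the rule takes in (Itgb1bp1, Itgb1bp2, Itgb2l, Itgb3bp and Itgbl1). Of these, 35 genes (47 probes) were bright enough to test, namely 20 integrin chains, 11 laminin chains and 4 of the other names.

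RNA was measured in the border zone of the ventricle, the muscle next to an infarct, on 14 Agilent 1-colour arrays with 1 sample each. All samples were hearts of male C57BL/6 mice, 8 weeks old, with no genetic change given. In the MI 14 days group (5 arrays) and the MI 3 days group (5 arrays) the left anterior descending coronary artery had been tied off for good, which causes a myocardial infarction (MI), and tissue was taken after 14 or 3 days. The sham group (4 arrays) had the same operation without the ligation, and the time of its harvest is not stated. The study design speaks of 10 ligated and 5 sham mice, while 4 sham arrays were analysed here. Poly-T selection and the labelling of total RNA are both named in the labels' protocols. The comparisons ask how the tissue next to the infarct differs from sham early and late, and between the times.

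Integrins join the cytoskeleton to the matrix outside the cell or to receptors on other cells, and the alpha chain sets most of the ligand preference. The Itgb2 and Itgb7 partners belong to leukocytes, Itgb1 pairs with most matrix-binding alpha chains, and the Itgav pairs bind proteins such as vitronectin and can release active TGF-beta from its latent form. In heart muscle, Itga7 with Itgb1 and the dystroglycan complex hold the cell membrane to laminins of the surrounding basement membrane, in which the Lama2 chain is the classical alpha chain of muscle.

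Levels below are log2 of the deposited intensity minus the array's 75th percentile, so that 0 is that percentile, and they are set only against levels of the same probe. Each change is given as a log2 fold change ± SE from a limma fit, with p adjusted by Benjamini-Hochberg over all 32261 tested probes, and a gene passed the test at an adjusted p under 0.05. The 75th percentile was 188.6 to 443 intensity units per array, and 54.8% to 66.1% of probes were well above background on the 10 arrays with scanner output (4 MI 14 days, 2 MI 3 days, 4 sham). Arrays of a group correlated at 0.979 to 0.991 in MI 14 days, 0.987 to 0.992 in MI 3 days and 0.989 to 0.992 in sham, across probes that are not independent. MI 14 days replicate 3 had the lowest mean correlation with its own group (0.981). Cardiomyocyte markers, which define the labelled tissue, were above background on all groups' scanner arrays, and none of the 6 was absent. Their summed level, in multiples of the 75th percentile, was 4304 to 5886 in MI 14 days, 2543 to 3198 in MI 3 days and 3923 to 5184 in sham samples, with 6 of 6 markers lower at 3 days and 2 of 6 lower at 14 days than in sham. The tissue is a mixture of cell types, and fewer cells of a type cannot be told apart from less RNA per cell.

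At 3 days after MI, 15 of the 35 genes were higher than in sham and 13 were lower, that is 42.9% and 37.1%. Of all 14866 named genes tested, 29.8% were higher and 40.4% were lower, so the share of lower members was near that of all genes. At 14 days, 12 were higher and 5 lower than in sham (34.3% and 14.3%), against 15.9% and 24.2% of all genes. Between the times, 14 were higher and 13 lower at 14 days than at 3 days (40% and 37.1%), against 33.6% and 26.9% of all genes. The arrays of the compared groups did not overlap in 15 members at 14 days against sham (all genes 35.1%), in 25 members at 3 days against sham (all genes 63.2%) and in 24 members between the times (all genes 46.1%). Past the threshold and at least 2-fold were 5 members at 14 days, 15 members at 3 days, and 12 with the MI groups compared (all genes 6.19%, 28.2% and 15.4%). The median change of the members was 0.17 at 14 days and 0.048 at 3 days against sham, beside -0.084 and -0.15 over all genes.

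Of the 20 integrin chains, 12 were higher and 4 lower at 3 days (60% and 20%), against 29.8% and 40.4% of all genes. At 14 days 9 were higher and 1 lower (45% and 5%), against 15.9% and 24.2% of all genes. Their median changes were 0.44 at 3 days and 0.49 at 14 days. Of the 11 laminin chains, 3 were higher and 6 lower at 3 days (27.3% and 54.5%). At 14 days 2 were higher and 2 lower (18.2% each), near the shares of all genes. Their medians were -0.30 and -0.0014. All 7 tested beta chains of integrins passed the test at 3 days, 5 of them higher, and Itgb4 and Itgb6 lower. Of all 14866 named genes tested, 10438 passed at 3 days. Both comparisons with sham use the same sham arrays, so their values are given side by side and are not independent. Another scaling moved the balance at 14 days: with quantile normalisation 14 members were higher and 3 lower, and with the percentile taken over tested probes 14 were higher and 4 lower, while the share of higher probes among all called at 14 days was 53.0% with the second scaling, against 39.2%.

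**Figure D1:**
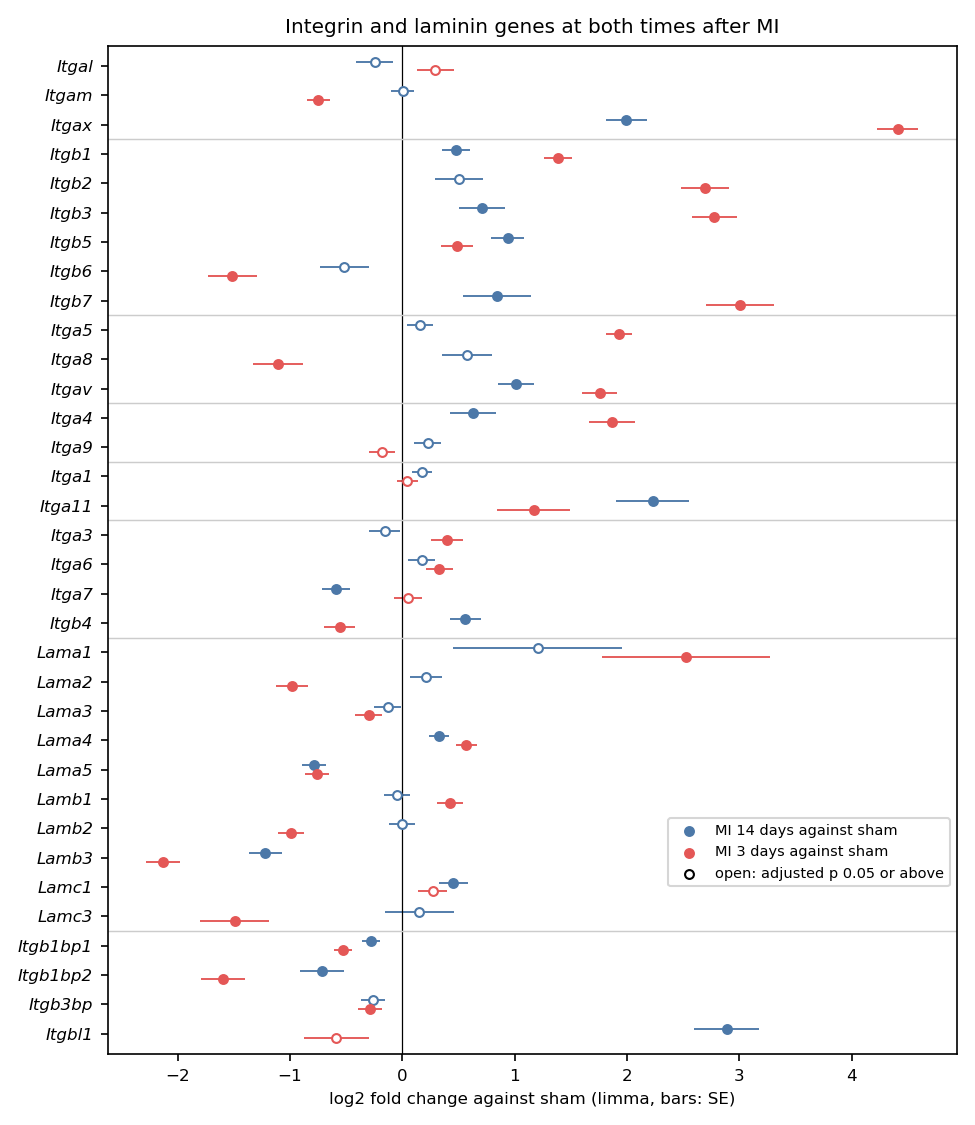
Log2 fold changes with SE (limma) of 34 of the 35 tested genes at 14 days (blue) and 3 days (red) against sham, grouped by role from leukocyte alpha chains at the top to the other names at the bottom; open points had an adjusted p of 0.05 or above. Itgax at 3 days lies furthest right at 4.41 and Lamb3 at 3 days furthest left at -2.13, and Itgb4 is the gene with filled points on both sides of 0.

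Promoters are shown for 5 members with large changes, as the 300 bases around the start of the gene in RefSeq (GRCm38.p6). They are 2 leukocyte chains, the fibronectin receptor chain, the fibroblast collagen receptor chain and the laminin chain with the largest fall. Capitals mark matches, on either strand, to GAGGAA (a core of ETS family sites such as that of PU.1), TGANTCA (the AP-1 core), GGGCGG (an Sp1 core) or TATAAA. No base lies in 2 matches. Itgax is at chr7:128129300-128129599, plus strand. Itgb7 is at chr15:102231886-102232185, minus strand, and Itga5 is at chr15:103366742-103367041, minus strand. Itga11 is at chr9:62677605-62677904, plus strand, and Lamb3 (the first of 2 entries) is at chr1:193301744-193302043, plus strand.
Itgax: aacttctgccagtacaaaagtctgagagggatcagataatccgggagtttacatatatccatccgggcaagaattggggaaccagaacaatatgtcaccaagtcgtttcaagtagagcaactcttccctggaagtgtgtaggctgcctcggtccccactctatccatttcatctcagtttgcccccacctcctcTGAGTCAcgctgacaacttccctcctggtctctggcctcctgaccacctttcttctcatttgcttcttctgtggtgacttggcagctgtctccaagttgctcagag
Itgb7: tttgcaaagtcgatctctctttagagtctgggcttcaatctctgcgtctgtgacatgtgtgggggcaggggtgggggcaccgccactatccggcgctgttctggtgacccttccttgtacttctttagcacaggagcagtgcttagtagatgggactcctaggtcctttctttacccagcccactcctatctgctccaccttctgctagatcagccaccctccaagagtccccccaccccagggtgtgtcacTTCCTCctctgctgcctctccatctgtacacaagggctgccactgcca
Itga5: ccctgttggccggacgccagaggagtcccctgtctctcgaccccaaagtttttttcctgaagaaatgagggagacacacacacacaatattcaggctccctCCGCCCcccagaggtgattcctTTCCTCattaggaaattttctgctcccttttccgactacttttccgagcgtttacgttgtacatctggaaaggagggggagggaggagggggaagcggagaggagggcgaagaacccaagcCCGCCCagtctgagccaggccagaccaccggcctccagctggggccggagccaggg
Itga11: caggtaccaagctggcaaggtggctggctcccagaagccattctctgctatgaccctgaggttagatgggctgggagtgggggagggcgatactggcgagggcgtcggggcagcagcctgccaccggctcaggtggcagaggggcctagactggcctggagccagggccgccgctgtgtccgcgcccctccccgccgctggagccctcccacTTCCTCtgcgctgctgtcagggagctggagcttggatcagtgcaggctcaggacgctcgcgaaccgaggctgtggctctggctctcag
Lamb3: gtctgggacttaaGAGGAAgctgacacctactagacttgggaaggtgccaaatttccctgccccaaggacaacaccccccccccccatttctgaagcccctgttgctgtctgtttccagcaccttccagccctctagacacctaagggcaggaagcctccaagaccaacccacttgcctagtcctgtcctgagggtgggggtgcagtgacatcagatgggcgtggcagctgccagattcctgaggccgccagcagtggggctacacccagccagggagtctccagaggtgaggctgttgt

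A promoter was given for 26 of the 40 genes. GAGGAA was in 15 of the 26 (31.3% of 27025 genes), GGGCGG in 12 (38.2%), TGANTCA in 3 (8.97%) and TATAAA in 0 (15.7%). GAGGAA was in 7 of the 10 members with a promoter that were higher at 3 days and in 6 of the 9 that were lower. TGANTCA was in Itga3, Itga9 and Itgax. These are matches of letters in 1 window and no evidence of binding. In the annotation Itgam, Itgax and Itgad are neighbours on chromosome 7 with 0 coding genes between them, as are Itga1 and Itga2 on chromosome 13.

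Among leukocyte chains, Itgax, Itgb2, Itgb7 and Itga4 were higher at 3 days than in sham by 21.3-fold, 6.47-fold, 8.05-fold and 3.65-fold, and all of them were lower at 14 days than at 3 days. Itgax, or CD11c, is a partner of Itgb2 found on dendritic cells and many macrophages. Its levels were -0.69, -0.44, -0.27, -0.74 and -1.05 in the MI 14 days samples, 1.69, 2.02, 2.19, 1.58 and 1.401 in the MI 3 days samples and -2.94, -2.499, -2.67 and -2.43 in the sham samples. Every MI 3 days sample lay above every MI 14 days sample, and these lay above every sham sample. The change was 1.995 ± 0.18, adjusted p = 1.06e-05 at 14 days and 4.41 ± 0.18, adjusted p = 7.95e-10 at 3 days against sham, and -2.42 ± 0.17, adjusted p = 1.35e-07 between 14 and 3 days. Within single slides, each with 1 array of either group, the change at 3 days was 4.25 and 3.83. Its promoter above holds 1 TGANTCA match and no GAGGAA match.

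Itgb2, the shared beta chain of Itgal, Itgam and Itgax, had levels of 0.36, 0.33, 0.65, 0.45 and 0.25 in the MI 14 days samples, 2.59, 2.21, 3.496, 2.25 and 2.46 in the MI 3 days samples and -0.29, -0.021, -0.16 and 0.104 in the sham samples. The MI 3 days samples were highest and MI 3 days replicate 3 the highest of them, and the 3 groups did not overlap. Itgb2 changed by 2.69 ± 0.21, adjusted p = 1.29e-07 at 3 days. At 14 days its difference from sham was 0.501 ± 0.21, adjusted p = 0.0886, which did not pass, and it was lower than at 3 days (-2.19 ± 0.20, adjusted p = 1.11e-06).

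Itgb7, the partner of Itga4 and Itgae on gut-homing lymphocytes and other leukocytes, had levels of -1.58, -1.405, -0.67, -1.35 and -1.66 in the MI 14 days samples, 0.73, 0.65, 1.99, 0.37 and 0.42 in the MI 3 days samples and -2.35, -1.89, -2.53 and -1.94 in the sham samples. MI 3 days replicate 3 was well above the other samples, and again the groups did not overlap. The change was 0.84 ± 0.30, adjusted p = 0.0474 at 14 days and 3.01 ± 0.30, adjusted p = 1.15e-06 at 3 days. Without MI 3 days replicate 3 the change at 3 days was 2.72.

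Itga4, whose pairs bind Vcam1 and fibronectin, had levels of -0.56, -0.58, -0.22, -0.47 and -0.97 in the MI 14 days samples, 0.35, 0.595, 1.47, 0.55 and 0.45 in the MI 3 days samples and -1.01, -1.36, -1.31 and -1.06 in the sham samples. Here too all MI 3 days samples were above all MI 14 days samples and those above all sham samples, with MI 3 days replicate 3 highest. The changes were 0.63 ± 0.21, adjusted p = 0.032 at 14 days, 1.87 ± 0.21, adjusted p = 2.68e-06 at 3 days and -1.24 ± 0.19, adjusted p = 0.000111 between the times. The calls at 14 days of Itga4 and Itgb7 depended on single arrays. Leaving out 1 array ended that of Itga4 in 6 cases (sham replicate 2 or 3, or MI 14 days replicate 1, 2, 3 or 4, adjusted p = 0.0509 to 0.0828) and that of Itgb7 in 11 cases (adjusted p = 0.0509 to 0.126, any sham array included).

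Itgal, the alpha chain of LFA-1 on lymphocytes and other leukocytes, has 2 tested probes that gave different answers. The brighter one had levels of -2.31, -2.28, -2.15, -1.93 and -2.08 in the MI 14 days samples, -1.68, -1.77, -1.08, -1.65 and -1.86 in the MI 3 days samples and -2.197, -2.11, -1.72 and -1.59 in the sham samples. Its MI 3 days and sham samples overlapped and its MI 14 days samples lay below all MI 3 days samples, with changes of -0.25 ± 0.16, adjusted p = 0.275 at 14 days, 0.29 ± 0.16, adjusted p = 0.131 at 3 days and -0.54 ± 0.16, adjusted p = 0.00898 between the times. With normexp background correction on the 10 scanner arrays the difference of this brighter probe between the times was -0.093 (adjusted p = 0.595). On those arrays without the correction it was -0.36 (0.151). The other probe, A_55_P2184601, was well above background on no MI 14 days or sham scanner array. It was at least 3.22-fold higher at 3 days than in sham (adjusted p = 0.000119). At 14 days it was at least 2.94-fold lower than at 3 days (adjusted p = 0.00235). This probe was tested only through the MI 3 days arrays, where it is high, so these p-values are no independent support.

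Itgam, or CD11b, the partner of Itgb2 on myeloid cells, has 3 tested probes, which passed the test in opposite directions. Probe A_55_P1977934, the brightest of them and the one that stands for the gene in the counts, had levels of 7.15, 7.39, 7.31, 7.397 and 7.34 in the MI 14 days samples, 6.55, 6.66, 6.46, 6.69 and 6.46 in the MI 3 days samples and 7.05, 7.56, 7.36 and 7.29 in the sham samples. Its MI 3 days samples were below all others and its MI 14 days samples overlapped sham. Probe A_55_P1977929, designed to the same transcript accession, had levels of -1.36, -1.77, -1.45, -1.37 and -1.51 in the MI 14 days samples, 0.48, 0.19, 1.3, -0.011 and 0.15 in the MI 3 days samples and -2.31, -2.36, -1.85 and -1.79 in the sham samples. Its MI 3 days samples were above all others. Probe A_55_P1977926, designed to another accession, had levels of -1.52, -1.75, -1.57, -0.97 and -0.87 in the MI 14 days samples, -1.42, -1.56, -1.17, -1.46 and -1.804 in the MI 3 days samples and -0.73, -0.56, -0.12 and -0.55 in the sham samples, with both MI groups below sham. At 3 days the 3 probes changed by -0.75 ± 0.10, adjusted p = 1.95e-05, by 2.5 ± 0.23, adjusted p = 4.39e-07 and by -0.99 ± 0.19, adjusted p = 0.00045. At 14 days they changed by 0.0018 ± 0.10, adjusted p = 0.991, by 0.59 ± 0.23, adjusted p = 0.0635 and by -0.84 ± 0.19, adjusted p = 0.00469. No direction is given here for Itgam. Its neighbour Itgad was well above background on no scanner array.

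**Figure D2:**
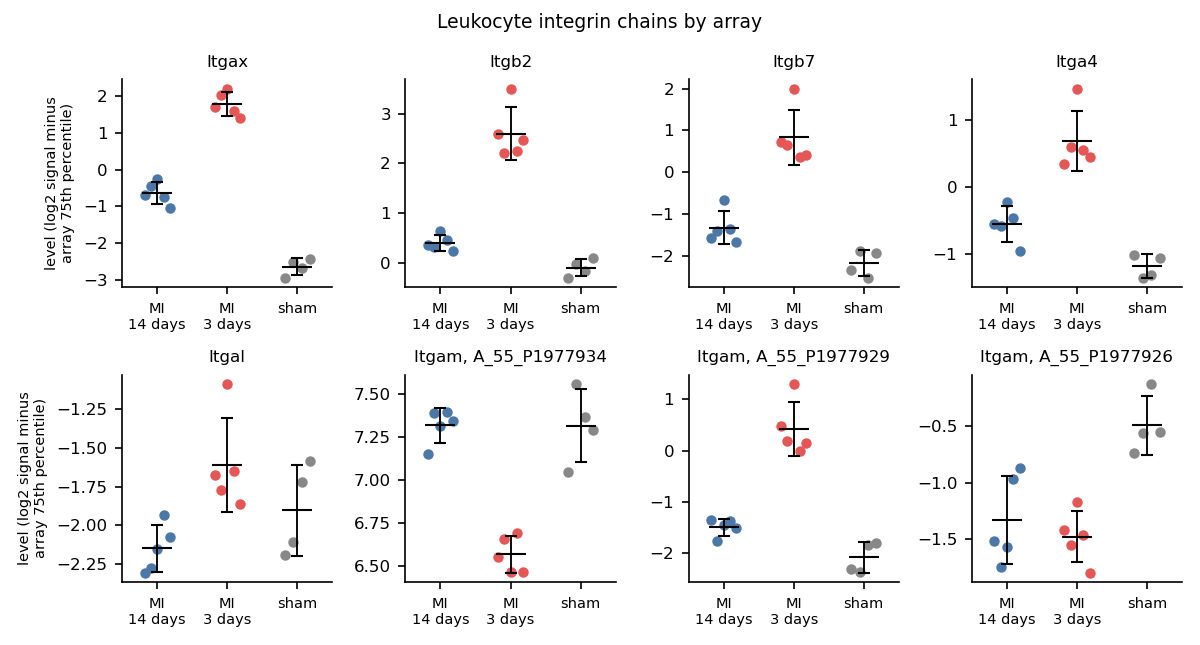
Levels (log2 scale, relative to each array's 75th percentile) of leukocyte integrin chains in every MI 14 days (blue), MI 3 days (red) and sham (grey) sample; the bar and whiskers are mean and SD. Itgax, Itgb2, Itgb7 and Itga4 are highest in MI 3 days, while the 3 Itgam probes differ in direction.

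Markers of leukocytes moved beside these chains, and their part in the result was not tested. Of 6 measured monocyte and macrophage markers (Cd68 was not measured), 6 were higher at 3 days and 3 at 14 days than in sham, and their summed level was 40.1 to 58.1 in MI 14 days, 66.6 to 124 in MI 3 days and 33 to 43.2 in sham samples. MI 3 days replicate 3, the highest sample for Itgb2, Itgb7 and Itga4, had the highest sum. Of 5 neutrophil markers, 4 were higher and Csf3r lower at 3 days, and 0 passed at 14 days. Their sum, 214 to 238 in MI 14 days, 191 to 270 in MI 3 days and 208 to 227 in sham samples, is mostly Csf3r, and Mmp8 was not above background on any MI 14 days or sham scanner array. Of 6 T and NK cell markers 4 were tested, and Cd3g and Klrd1 were not above background on the sham scanner arrays. Among the 4, Cd3d and Klrd1 were higher at both times and Nkg7 was lower at 3 days, with a sum of 5.88 to 6.93 in MI 14 days, 5.65 to 7.05 in MI 3 days and 6.31 to 7.04 in sham samples. Klrd1 and the neutrophil markers Mmp8 and Cxcr2 were tested only through the MI 3 days arrays, where they are highest. Cd3d was tested only through the MI groups. The calls of these markers are no independent support. The B cell sum was 0.681 to 2.37 in MI 14 days, 0.945 to 2.02 in MI 3 days and 0.594 to 0.881 in sham samples, where Cd79b alone of 4 passed, at 3 days.

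Chains that bind fibronectin, vitronectin and related matrix proteins were mostly higher at 3 days, with Itgb3 up 6.86-fold, Itga5 3.81-fold, Itgav 3.38-fold and Itgb1 2.61-fold, while Itga8 and Itgb6 were lower. Itgb3, the partner of Itgav and of the platelet chain Itga2b, had levels of 0.0004, 0.195, 0.68, 0.87 and -0.087 in the MI 14 days samples, 2.36, 2.504, 2.74, 2.33 and 2.07 in the MI 3 days samples and -0.36, -0.64, -0.048 and -0.45 in the sham samples. All MI 3 days samples were above the rest, and 1 MI 14 days sample lay within the sham range. Its changes were 0.71 ± 0.20, adjusted p = 0.0163 at 14 days, 2.78 ± 0.20, adjusted p = 6.25e-08 at 3 days and -2.07 ± 0.19, adjusted p = 1.16e-06 between the times. A second probe, A_66_P126293, not well above background in MI 14 days or sham, was at least 4.1-fold higher at 3 days than in sham (adjusted p = 1.21e-06). That probe was tested only through the MI 3 days arrays, where it is high, so its p-value is no independent support. The call of the first probe at 14 days ended without sham replicate 2 (adjusted p = 0.0523).

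Itga5, which with Itgb1 forms the main fibronectin receptor, had levels of -0.34, -0.12, 0.102, 0.029 and -0.22 in the MI 14 days samples, 1.57, 1.56, 1.97, 1.68 and 1.54 in the MI 3 days samples and -0.18, -0.49, -0.26 and -0.15 in the sham samples. The MI 3 days samples stood above all others, and MI 14 days overlapped sham. It changed by 1.93 ± 0.12, adjusted p = 1.54e-08 at 3 days, and the difference at 14 days was 0.16 ± 0.12, adjusted p = 0.338. At 14 days it was lower than at 3 days (-1.77 ± 0.11, adjusted p = 4.16e-08).

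Itgav, the alpha chain shared by Itgb1, Itgb3, Itgb5, Itgb6 and Itgb8, had levels of -0.69, -0.87, -0.72, -0.79 and -1.24 in the MI 14 days samples, -0.16, -0.054, -0.12, -0.13 and -0.11 in the MI 3 days samples and -1.98, -1.82, -1.38 and -2.31 in the sham samples. The 5 MI 3 days samples lay close together and above all MI 14 days samples, which were above all sham samples. Changes were 1.01 ± 0.16, adjusted p = 0.000439 at 14 days and 1.76 ± 0.16, adjusted p = 3.70e-07 at 3 days, and -0.75 ± 0.15, adjusted p = 0.000737 between them. The second probe passed in the same 3 directions.

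Itgb1, the most widely shared beta chain, had levels of 1.95, 1.99, 2.15, 2.02 and 1.67 in the MI 14 days samples, 2.72, 2.75, 2.95, 2.93 and 2.98 in the MI 3 days samples and 1.43, 1.17, 1.603 and 1.73 in the sham samples. MI 3 days was above the others throughout, and 1 MI 14 days sample fell within the sham range. The changes were 0.48 ± 0.12, adjusted p = 0.00935 at 14 days, 1.39 ± 0.12, adjusted p = 3.45e-07 at 3 days and -0.91 ± 0.12, adjusted p = 1.89e-05 between the times, and its second probe passed in the same directions.

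Itgb5, a vitronectin-binding partner of Itgav, moved the other way between the times. Its levels were 4.82, 4.99, 5.63, 5.298 and 4.801 in the MI 14 days samples, 4.57, 4.73, 4.63, 4.63 and 4.71 in the MI 3 days samples and 4.18, 4.06, 4.12 and 4.32 in the sham samples. The order was MI 14 days above MI 3 days above sham with no overlap, and MI 14 days replicate 3 was highest. The changes were 0.94 ± 0.15, adjusted p = 0.00045 at 14 days, 0.49 ± 0.15, adjusted p = 0.00958 at 3 days and 0.45 ± 0.14, adjusted p = 0.0126 between the times.

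Itgb6, the epithelial partner of Itgav that activates latent TGF-beta, had levels of 0.23, -0.13, -0.96, 0.27 and 0.39 in the MI 14 days samples, -1.24, -0.98, -0.81, -0.97 and -1.19 in the MI 3 days samples and 0.5, 0.51, 0.33 and 0.56 in the sham samples. All MI 3 days samples were below all sham samples, and the MI 14 days samples spread over both ranges, with replicate 3 among the MI 3 days values. Itgb6 changed by -1.51 ± 0.22, adjusted p = 3.45e-05 at 3 days and by 0.997 ± 0.21, adjusted p = 0.00103 at 14 days against 3 days, and its difference from sham at 14 days was -0.52 ± 0.22, adjusted p = 0.0871. A second probe, not well above background on the 2 MI 3 days scanner arrays, was at least 2.97-fold lower at 3 days than in sham (adjusted p = 0.00086). That bound rests on 2 of the 5 arrays. The probe was tested only through the sham arrays, where it is high, so its p-value is no independent support.

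Itga8, which with Itgb1 binds nephronectin and is known from smooth muscle and mesenchymal cells, had levels of -0.401, -0.298, 0.058, -0.38 and -1.13 in the MI 14 days samples, -2.02, -1.97, -2.47, -2.37 and -1.74 in the MI 3 days samples and -0.85, -0.93, -0.78 and -1.47 in the sham samples. MI 3 days lay below every other sample and MI 14 days overlapped sham. It changed by -1.105 ± 0.22, adjusted p = 0.000603 at 3 days and by 1.68 ± 0.21, adjusted p = 1.60e-05 at 14 days against 3 days, and the difference at 14 days from sham was 0.58 ± 0.22, adjusted p = 0.0608.

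Itga9, whose pair with Itgb1 binds tenascin C and Vcam1, had levels of 2.97, 3.41, 3.55, 3.48 and 3.17 in the MI 14 days samples, 2.97, 2.98, 2.66, 2.98 and 2.95 in the MI 3 days samples and 3.01, 3.07, 3.19 and 3.08 in the sham samples. Its MI 3 days samples all lay below sham by a small margin, yet neither comparison with sham passed (0.23 ± 0.12, adjusted p = 0.162 at 14 days and -0.18 ± 0.12, adjusted p = 0.188 at 3 days). It was higher at 14 days than at 3 days (0.41 ± 0.11, adjusted p = 0.0066). Itga2b was well above background on 2 of 4 MI 14 days, 1 of 2 MI 3 days and 2 of 4 sham scanner arrays, and Itgb8 on 1 MI 3 days array of the 10, so neither was tested.

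**Figure D3:**
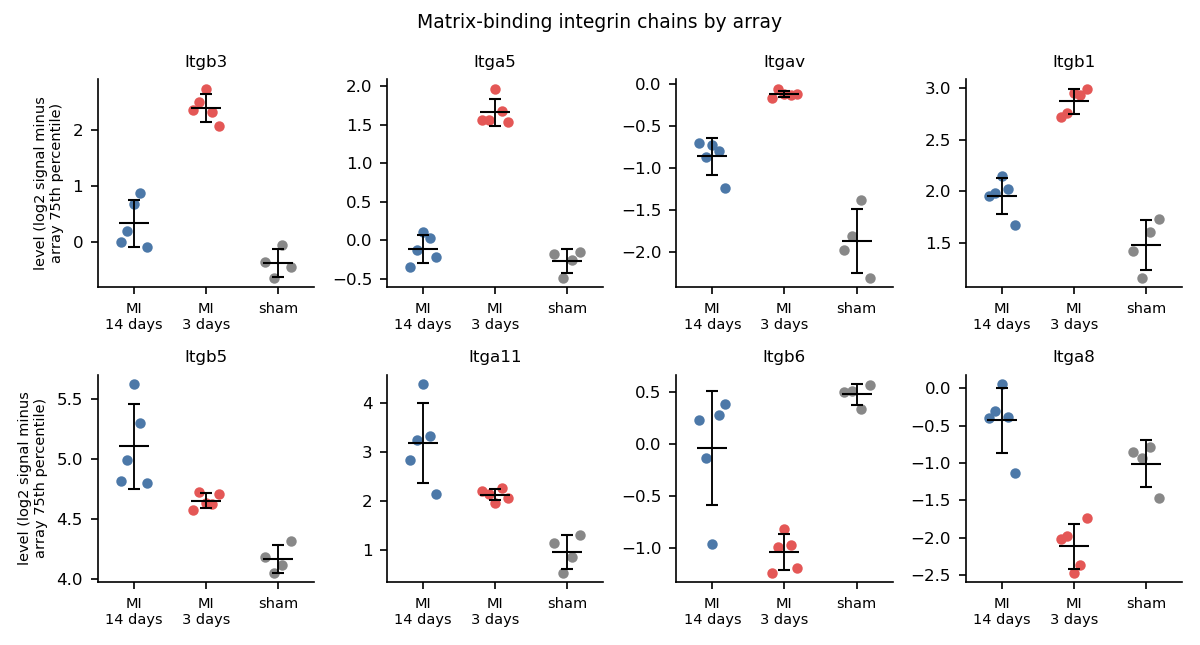
Levels (log2 scale, relative to each array's 75th percentile) of 8 matrix-binding integrin chains in every MI 14 days (blue), MI 3 days (red) and sham (grey) sample; the bar and whiskers are mean and SD. Itgb3, Itga5, Itgav and Itgb1 are highest in MI 3 days, Itgb5 and Itga11 have their highest means in MI 14 days, and Itgb6 and Itga8 are lowest in MI 3 days.

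Of the platelet markers, Pf4, Ppbp and Gp1bb, 3 of 5 tested, were higher at 3 days, and 0 of 5 passed at 14 days. Their summed level, mostly Pf4, was 13.5 to 23.1 in MI 14 days, 77.4 to 141 in MI 3 days and 16.2 to 17 in sham samples, again highest in MI 3 days replicate 3, and Gp6 was not above background on the MI 3 days scanner arrays. Mesothelial and epithelial markers, beside Itgb6, had a sum of 4.99 to 15.2 in MI 14 days, 1.93 to 4.76 in MI 3 days and 6.72 to 9.09 in sham samples, with 3 of 4 lower at 3 days and 0 passing at 14 days, and Epcam was not above background in MI 3 days or sham. Of 6 smooth muscle and pericyte markers, 4 were higher and 2 lower at 3 days, with a sum of 67 to 101 in MI 14 days, 109 to 166 in MI 3 days and 71.3 to 85.2 in sham samples. The part of these cell types in the changes was not tested.

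Of the collagen-binding chains, Itga11 was higher at both times and Itga1 at neither. Itga11, a receptor of fibroblasts for fibrillar collagen, had levels of 2.84, 3.24, 4.39, 3.33 and 2.13 in the MI 14 days samples, 2.21, 2.14, 1.96, 2.26 and 2.06 in the MI 3 days samples and 1.14, 0.53, 0.85 and 1.31 in the sham samples. All samples after MI lay above all sham samples, MI 14 days replicate 3 was highest, and MI 14 days replicate 5 fell among the MI 3 days values. The changes were 2.23 ± 0.32, adjusted p = 0.000287 at 14 days (4.69-fold higher), 1.17 ± 0.32, adjusted p = 0.006 at 3 days and 1.06 ± 0.31, adjusted p = 0.00948 between the times. Without MI 14 days replicate 3 the change at 14 days was 1.93. Fibroblast markers moved beside it, with 5 of 5 higher at 14 days and 3 of 5 higher and Dcn lower at 3 days. Their summed level was 645 to 837 in MI 14 days, 368 to 445 in MI 3 days and 331 to 351 in sham samples, with the highest value in MI 14 days replicate 3, and their part in the result was not tested.

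Itga1, a collagen receptor chain of many mesenchymal cells, averaged 1.35 ± 0.07 in MI 14 days, 1.22 ± 0.13 in MI 3 days and 1.18 ± 0.16 in sham samples (SD, n = 5, 5 and 4), with overlapping groups and no test passed. Its second probe passed at 14 days (0.39 ± 0.14, adjusted p = 0.049). Itga2, the collagen receptor chain of platelets and epithelia, was well above background on 1 MI 3 days scanner array only and was not tested. No probe for Itga10, Itgae or Lamb4 was found by accession, and they are not analysed here.

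Laminin-binding chains changed by under 2-fold against sham at both times. Itga7, the laminin receptor chain of muscle cells, had levels of 5.26, 5.204, 4.84, 5.13 and 5.5 in the MI 14 days samples, 6.12, 5.73, 5.65, 5.802 and 5.82 in the MI 3 days samples and 5.86, 5.66, 5.801 and 5.78 in the sham samples. The MI 14 days samples lay below all other samples, and MI 3 days overlapped sham. Itga7 changed by -0.59 ± 0.12, adjusted p = 0.00294 at 14 days and by -0.64 ± 0.12, adjusted p = 0.000419 at 14 days against 3 days, and its difference at 3 days was 0.048 ± 0.12, adjusted p = 0.749. Of the cardiomyocyte markers above, 6 of 6 were lower at 3 days and 2 of 6 at 14 days, and their part in the change of Itga7 was not tested.

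Itgb4, the partner of Itga6 in hemidesmosomes and in Schwann cells, went opposite ways at the 2 times. Its levels were -0.99, -0.603, -0.78, -0.504 and -1.08 in the MI 14 days samples, -1.81, -1.88, -2.18, -1.91 and -1.77 in the MI 3 days samples and -1.54, -1.19, -1.56 and -1.13 in the sham samples. No groups overlapped, with MI 14 days above sham and MI 3 days below it. The changes were 0.56 ± 0.14, adjusted p = 0.00781 at 14 days, -0.56 ± 0.14, adjusted p = 0.00309 at 3 days and 1.12 ± 0.13, adjusted p = 1.02e-05 between the times. It was the single member that passed in opposite directions against sham. With normexp background correction on the 10 scanner arrays the value at 14 days was 0.21 (adjusted p = 0.186). Of 4 Schwann cell markers, Sox10 was lower and Mbp higher at 3 days, with a summed level of 2.01 to 2.52 in MI 14 days, 2.44 to 2.97 in MI 3 days and 2.07 to 2.72 in sham samples.

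Itga3, a laminin receptor chain of epithelia and other cells, had levels of -2.09, -2.21, -1.68, -1.703 and -1.66 in the MI 14 days samples, -1.06, -1.44, -1.31, -1.48 and -1.28 in the MI 3 days samples and -1.94, -1.65, -1.79 and -1.46 in the sham samples. MI 3 days lay above all MI 14 days samples and overlapped sham. It changed by 0.398 ± 0.14, adjusted p = 0.0224 at 3 days and by -0.55 ± 0.13, adjusted p = 0.00279 between the times, and differed by -0.16 ± 0.14, adjusted p = 0.427 at 14 days. Itga6, a laminin receptor chain of endothelium, epithelia and platelets, had levels of 4.21, 4.31, 4.67, 4.57 and 4.37 in the MI 14 days samples, 4.396, 4.73, 4.77, 4.499 and 4.53 in the MI 3 days samples and 4.14, 4.26, 4.12 and 4.49 in the sham samples, with overlap between all groups. It changed by 0.33 ± 0.12, adjusted p = 0.0255 at 3 days and differed by 0.17 ± 0.12, adjusted p = 0.291 at 14 days and by -0.16 ± 0.11, adjusted p = 0.25 between the times. With normexp background correction the difference of Itga3 between the times was -0.13 (adjusted p = 0.491). On the 10 scanner arrays without it the difference was -0.41 (0.0832), and with the slide as a block it passed (-0.46, 0.0395). Both calls at 3 days, of Itga3 and of Itga6, were close to the threshold. They ended without sham replicate 1 (adjusted p = 0.0761 for Itga3 and 0.0703 for Itga6) or sham replicate 3 (0.0542 and 0.0737). That of Itga3 also ended without MI 3 days replicate 1 (0.0555) and with the replicate number as a block (0.0546), and that of Itga6 without MI 3 days replicate 2 (0.058) or 3 (0.0604). Endothelial markers, beside Itga6, had a summed level of 25.7 to 29.9 in MI 14 days, 25.7 to 32.2 in MI 3 days and 27.8 to 32.1 in sham samples.

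**Figure D4:**
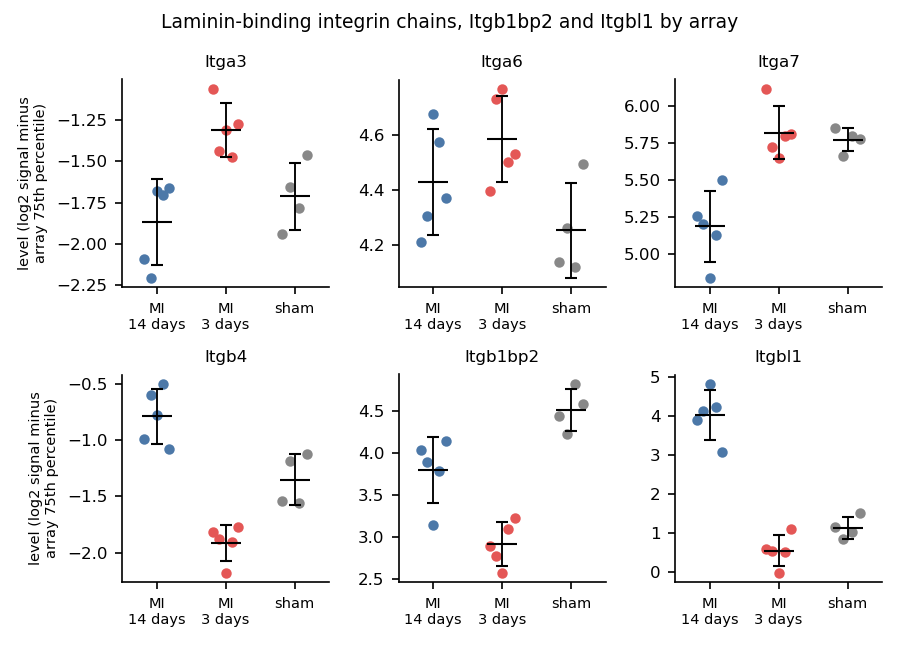
Levels (log2 scale, relative to each array's 75th percentile) of the 4 laminin-binding integrin chains and of Itgb1bp2 and Itgbl1 in every MI 14 days (blue), MI 3 days (red) and sham (grey) sample; the bar and whiskers are mean and SD. Itgb4 is above sham at 14 days and below it at 3 days, Itga7 is lowest in MI 14 days, and Itgbl1 is highest in MI 14 days.

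Of the laminin chains, Lamb3 had the largest fall, 4.38-fold at 3 days, and Lama2, Lamb2 and Lamc3 were lower at 3 days and did not pass against sham at 14 days. Lamb3, a beta chain of epithelial laminin that assembles with Lama3, had levels of 0.29, 0.0002, -0.18, 0.12 and 0.603 in the MI 14 days samples, -0.898, -0.82, -0.86, -0.43 and -0.72 in the MI 3 days samples and 1.34, 1.61, 1.26 and 1.33 in the sham samples. All MI 3 days samples were below all MI 14 days samples, and these were below all sham samples. Its changes were -1.22 ± 0.15, adjusted p = 7.68e-05 at 14 days, -2.13 ± 0.15, adjusted p = 4.20e-08 at 3 days and 0.91 ± 0.14, adjusted p = 9.22e-05 between the times. Lama3 averaged -1.01 ± 0.17 in MI 14 days, -1.18 ± 0.17 in MI 3 days and -0.88 ± 0.20 in sham samples and passed at 3 days (-0.298 ± 0.12, adjusted p = 0.0425), with -0.13 ± 0.12, adjusted p = 0.443 at 14 days. Its second probe did not pass at 3 days (-0.33 ± 0.28, adjusted p = 0.319) or at 14 days (0.27 ± 0.28, adjusted p = 0.496). With the mean of both probes the call of Lama3 at 3 days ended (adjusted p = 0.0946).

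Lama2, the alpha chain of muscle basement membranes, had levels of 4.06, 4.61, 4.64, 4.51 and 4.34 in the MI 14 days samples, 3.17, 3.12, 3.01, 3.43 and 3.48 in the MI 3 days samples and 4.296, 3.93, 4.25 and 4.401 in the sham samples. The MI 3 days samples were below all others and MI 14 days overlapped sham. It changed by -0.98 ± 0.14, adjusted p = 3.82e-05 at 3 days and by 1.19 ± 0.13, adjusted p = 7.16e-06 at 14 days against 3 days, with a difference from sham of 0.21 ± 0.14, adjusted p = 0.284 at 14 days, and its second probe passed in the same comparisons and directions.

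Lamb2, the beta chain of laminins at neuromuscular junctions, vessels and kidney glomeruli, had levels of 4.295, 4.17, 4.36, 4.303 and 4.499 in the MI 14 days samples, 3.39, 3.31, 3.04, 3.42 and 3.51 in the MI 3 days samples and 4.47, 4.14, 4.18 and 4.52 in the sham samples. MI 3 days lay about 1 log2 unit below the rest with no overlap, and MI 14 days overlapped sham. The changes were -0.99 ± 0.11, adjusted p = 3.98e-06 at 3 days and 0.99 ± 0.11, adjusted p = 4.85e-06 at 14 days against 3 days, and the difference from sham at 14 days was -0.0014 ± 0.11, adjusted p = 0.994.

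Lamc3, a gamma chain of few tissues, had levels of -3.89, -3.18, -2.602, -3.38 and -2.89 in the MI 14 days samples, -4.27, -4.99, -4.99, -5.36 and -4.55 in the MI 3 days samples and -2.94, -3.53, -4.09 and -2.799 in the sham samples. MI 3 days samples were lowest without overlap, but the probe was well above background on 4 of 4 MI 14 days, 1 of 2 MI 3 days and 3 of 4 sham scanner arrays. It changed by -1.49 ± 0.31, adjusted p = 0.000709 at 3 days and by 1.64 ± 0.29, adjusted p = 0.000292 between the times. Its difference from sham at 14 days was 0.15 ± 0.31, adjusted p = 0.744. It was tested only through the MI 14 days arrays, where its mean was highest, so the p-value between the times is no independent support.

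Lama5, the alpha chain of most adult vessel and epithelial basement membranes, had levels of 3.16, 3.22, 3.25, 3.22 and 3.64 in the MI 14 days samples, 3.27, 3.26, 3.26, 3.37 and 3.45 in the MI 3 days samples and 4.24, 3.96, 3.91 and 4.22 in the sham samples. Both MI groups were below every sham sample and overlapped each other. The changes were -0.79 ± 0.11, adjusted p = 0.000206 at 14 days and -0.76 ± 0.11, adjusted p = 3.23e-05 at 3 days, and -0.025 ± 0.10, adjusted p = 0.849 between the times, which did not pass.

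Lama1, a chain of embryonic basement membranes, was well above background on no sham scanner array, and was so on 1 of 4 MI 14 days and 2 of 2 MI 3 days arrays. Its levels were -6.296, -5.94, -5.35, -6.11 and -1.91 in the MI 14 days samples, -4.61, -3.53, -4.84, -3.35 and -2.67 in the MI 3 days samples and -6.64, -6.04, -6.22 and -6.404 in the sham samples. All MI 3 days samples lay above sham, and MI 14 days replicate 5 stood far above the other 4 of its group. At 3 days it was at least 1.49-fold higher than in sham (adjusted p = 0.00896), and it counts among the 15 higher members. It was tested only through the MI 3 days arrays, the group where it is high, so this p-value is no independent support. It did not pass at 14 days (adjusted p = 0.242) or between the times (-1.32 ± 0.71, adjusted p = 0.127). The difference between the times passed without MI 14 days replicate 5 (-2.13, adjusted p = 0.000516), with array weights (0.0236) and with the replicate block (0.0256). With normexp background correction the value at 3 days was 0.45 (adjusted p = 0.112).

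Next come the widespread Lama4 of vessels and muscle, Lamb1 and Lamc1. Lama4 averaged 3.26 ± 0.09 in MI 14 days, 3.5 ± 0.15 in MI 3 days and 2.93 ± 0.11 in sham samples without overlap and was higher at both times (0.33 ± 0.09, adjusted p = 0.0139 at 14 days and 0.57 ± 0.09, adjusted p = 8.05e-05 at 3 days). Lamb1, the beta chain of early and many adult laminins, averaged 4.65 ± 0.24 in MI 14 days, 5.12 ± 0.11 in MI 3 days and 4.696 ± 0.10 in sham samples and was higher at 3 days (0.42 ± 0.12, adjusted p = 0.00524), with -0.047 ± 0.12, adjusted p = 0.789 at 14 days and -0.47 ± 0.11, adjusted p = 0.00225 between the times. Lamc1, the gamma chain of most laminins, averaged 5.08 ± 0.25 in MI 14 days, 4.9 ± 0.18 in MI 3 days and 4.63 ± 0.11 in sham samples and was higher at 14 days (0.46 ± 0.13, adjusted p = 0.0155). The difference of Lamc1 from sham at 3 days was 0.27 ± 0.13, adjusted p = 0.0787, and that between the times was 0.18 ± 0.12, adjusted p = 0.213, so neither passed. At 3 days it passed under 6 other settings, among them quantile normalisation (0.44, adjusted p = 0.0118) and array weights (adjusted p = 0.0156), and its call at 14 days ended with normexp background correction (adjusted p = 0.0779). The call of Lama3 at 3 days ended without any of 7 single arrays, among them sham replicate 2 (adjusted p = 0.15) and MI 3 days replicate 3 (0.102), and with either other scaling (0.083 and 0.0645). The difference of Lama4 between the times (-0.24 ± 0.09, adjusted p = 0.0261) ended without MI 3 days replicate 4 (0.0736) or 5 (0.0527) or MI 14 days replicate 1 (0.0577) or 5 (0.0599).

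**Figure D5:**
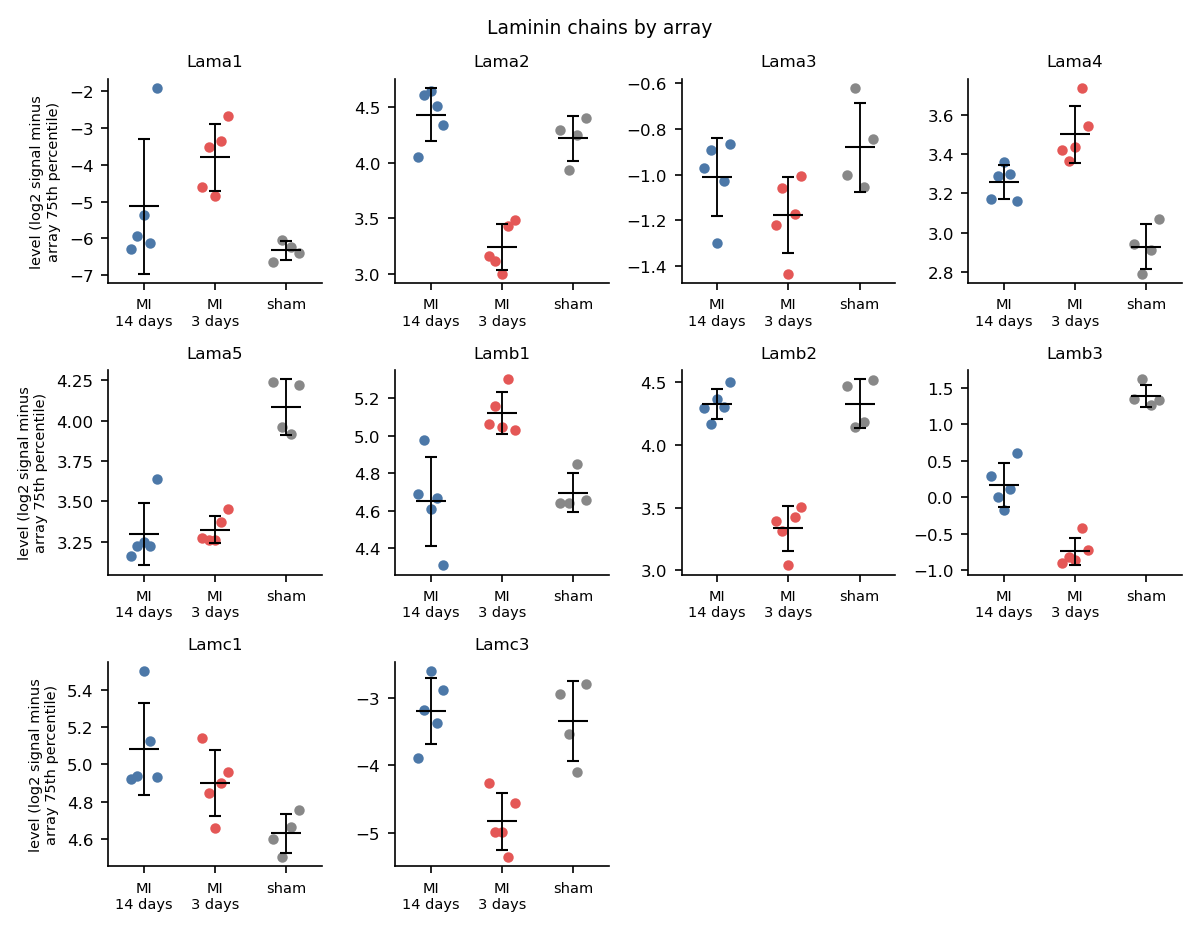
Levels (log2 scale, relative to each array's 75th percentile) of 10 laminin chains in every MI 14 days (blue), MI 3 days (red) and sham (grey) sample; the bar and whiskers are mean and SD. Lama2, Lamb2, Lamb3 and Lamc3 are lowest in MI 3 days, Lama5 is below sham at both times, and 1 MI 14 days sample of Lama1 stands apart.

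Among the other names, Itgbl1 had the largest rise at 14 days of all 35 genes. Itgbl1 encodes a protein with repeats like those of integrin beta chains and is no integrin chain. Its levels were 3.89, 4.13, 4.82, 4.22 and 3.07 in the MI 14 days samples, 0.59, 0.55, -0.011, 0.51 and 1.11 in the MI 3 days samples and 1.15, 0.86, 1.03 and 1.51 in the sham samples. The MI 14 days samples were far above all others, and MI 3 days overlapped sham. It changed by 2.89 ± 0.29, adjusted p = 2.00e-05 at 14 days (7.4-fold higher) and by 3.48 ± 0.27, adjusted p = 2.96e-07 at 14 days against 3 days, and differed by -0.59 ± 0.29, adjusted p = 0.0907 at 3 days. Its second probe passed in the same 2 comparisons, but was tested only through the MI 14 days arrays, where it is high. As with Itga11, MI 14 days replicate 3 was highest and replicate 5 lowest of the group.

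Itgb1bp2, the muscle protein melusin, which binds the tail of Itgb1, had levels of 4.03, 3.89, 3.14, 3.78 and 4.14 in the MI 14 days samples, 2.89, 2.77, 2.57, 3.097 and 3.23 in the MI 3 days samples and 4.43, 4.22, 4.82 and 4.57 in the sham samples. Both MI groups were below all sham samples, and 1 MI 14 days sample fell within the MI 3 days range. The changes were -0.71 ± 0.20, adjusted p = 0.0132 at 14 days, -1.598 ± 0.20, adjusted p = 7.36e-06 at 3 days and 0.89 ± 0.18, adjusted p = 0.00109 between the times. The call at 14 days ended with quantile normalisation (adjusted p = 0.0528). At 3 days it moved in the same direction as the 6 cardiomyocyte markers given above, and their part in it was not tested.

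Itgb1bp1, a protein known as ICAP1 that holds Itgb1 inactive, had levels of 2.51, 2.38, 2.33, 2.496 and 2.39 in the MI 14 days samples, 2.12, 2.13, 2.26, 2.17 and 2.18 in the MI 3 days samples and 2.801, 2.502, 2.68 and 2.81 in the sham samples. MI 3 days lay below all others and MI 14 days overlapped sham. It changed by -0.28 ± 0.08, adjusted p = 0.0166 at 14 days and by -0.53 ± 0.08, adjusted p = 5.26e-05 at 3 days, and the first of these ended without sham replicate 1 (adjusted p = 0.0541) or 4 (0.0523). It also ended with quantile normalisation (-0.14, adjusted p = 0.153), the percentile over tested probes (0.071), the fit of 2 groups (0.0511) and the mean of both probes (0.0514). The second probe of Itgb1bp1 was lower at 3 days (-0.48 ± 0.10, adjusted p = 0.000748) and differed by -0.076 ± 0.10, adjusted p = 0.597 at 14 days. Itgb3bp, a centromere protein and nuclear receptor cofactor, had levels of 1.12, 1.17, 0.98, 1.35 and 1.26 in the MI 14 days samples, 1.04, 1.37, 1.05, 1.17 and 1.104 in the MI 3 days samples and 1.69, 1.32, 1.29 and 1.44 in the sham samples, with overlapping groups. It changed by -0.29 ± 0.11, adjusted p = 0.03 at 3 days, a call that ended without any of 5 single arrays (adjusted p = 0.0557 to 0.111), and differed by -0.26 ± 0.11, adjusted p = 0.0808 at 14 days. Itgb2l, a mouse relative of Itgb2, was well above background on none of the 10 scanner arrays.

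The adaptors and kinases that link integrins to actin comprised 20 tested genes, of which 11 were higher and 7 lower at 3 days (all genes 29.8% and 40.4%) with a median change of 0.38, and at 14 days 6 were higher and 3 lower (all genes 15.9% and 24.2%) with a median of -0.083. The hematopoietic adaptor Parvg changed by 3.41 ± 0.28, Actn1, an actin crosslinker, by 2.67 ± 0.22 and Fermt3, the kindlin of blood cells, by 2.55 ± 0.20 at 3 days. The falls at 3 days were led by Lims2 (-1.28 ± 0.15), a partner of integrin-linked kinase, Tns1 (-0.96 ± 0.12), a tensin, and Tln2 (-0.704 ± 0.10), the talin of muscle. At 14 days Actn1 (1.01 ± 0.22), Parvg (0.98 ± 0.28) and Tns3 (0.84 ± 0.15) were highest above sham, and Fermt2 (-0.33 ± 0.09), Tln2 (-0.33 ± 0.10) and Parvb (-0.31 ± 0.08) furthest below.

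Of 16 tested ligands and counter-receptors, 10 were higher and 2 lower at 3 days (all genes 29.8% and 40.4%), and 8 were higher and 0 lower at 14 days (all genes 15.9% and 24.2%), with medians of 0.79 and 0.35. Spp1 (osteopontin), which binds Itgav and Itga4 pairs, changed by 3.65 ± 0.28 at 14 days and 9.18 ± 0.28 at 3 days. Tnc (tenascin C), a ligand of Itga9 and Itgav pairs and not above background in sham, was at least 4.23-fold higher at 14 days and at least 82.9-fold higher at 3 days. Thbs1 (thrombospondin) changed by 4.16 ± 0.39 at 3 days and Postn (periostin) by 3.45 ± 0.20 at 14 days. Vtn (vitronectin, -1.46 ± 0.14) and Ltbp1, which holds latent TGF-beta in the matrix (-0.81 ± 0.18), were lower at 3 days.

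Basement membrane partners and other laminin receptors split, with 7 of 16 higher and 8 lower at 3 days (all genes 29.8% and 40.4%) and 8 higher and 3 lower at 14 days (all genes 15.9% and 24.2%), and medians of -0.13 and 0.27. The basement membrane collagens Col18a1 (1.18 ± 0.18 at 14 days, 2.54 ± 0.18 at 3 days) and Col15a1 (1.83 ± 0.18 and 2.24 ± 0.18 at the same times) rose at both times. Nid2, a nidogen, changed by 1.27 ± 0.11 at 3 days and Ntn4, a netrin that binds laminin, by 0.84 ± 0.22 at 14 days. The sarcoglycan Sgca (-0.65 ± 0.15 at 14 days, -1.52 ± 0.15 at 3 days) and the laminin receptor Bcam (-0.51 ± 0.13 and -0.89 ± 0.13) were lower at both times.

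Slides were known for the 10 scanner arrays. Every member that passed kept its direction within slides that held both groups. This was 17 of 17 at 14 days (slide 1 with 1 MI and 2 sham arrays, slide 3 with 3 and 1). It was 28 of 28 at 3 days (slides 2 and 3, each with 1 array of either group). Between the times it was 27 of 27 (slide 3, 3 MI 14 days arrays and 1 MI 3 days array). The same arrays were in the fit that made the calls, so this agreement was largely built in and is no separate support. With the slide as a block on these 10 arrays, with 2 of them from MI 3 days, 7 members passed at 14 days, 19 members passed at 3 days, and 17 passed when the MI groups were compared. On the same arrays without the block 17, 21 and 20 members passed in these comparisons. Calls of the fit on all 14 arrays that ended with the block follow, with their log2 change and adjusted p under it. At 14 days they were Itga7 (-0.58, 0.0535), Itgb1 (0.41, 0.114), Itgb3 (0.73, 0.0741), Itgb4 (0.39, 0.14), Lama4 (0.297, 0.109), Lamc1 (0.41, 0.0939), Itgb1bp2 (-0.69, 0.105), Itga4 (0.61, 0.0707), Itgb7 (0.72, 0.0948) and Itgb1bp1 (-0.28, 0.145). At 3 days they were Itga11 (1.06, 0.166), Itga8 (-0.96, 0.0692), Itgb4 (-0.504, 0.0685), Itgb5 (0.401, 0.189), Lama1 (2.97, 0.0643), Itga3 (0.23, 0.181), Itga6 (0.18, 0.326), Itgb3bp (-0.27, 0.238) and Lama3 (-0.13, 0.56). Between the times they were Itga11 (1.03, 0.227), Itga7 (-0.62, 0.0564), Itga9 (0.39, 0.122), Itgal (-0.23, 0.269), Itgav (-0.56, 0.125), Itgb1bp1 (0.25, 0.235), Itgb1bp2 (0.71, 0.134), Itgb5 (0.45, 0.197), Itgb6 (1.04, 0.0864) and Lama4 (-0.35, 0.0953). All of these kept the sign they had without the block. Some had already ended on the same 10 arrays without the block, so their loss is not due to the block alone. At 14 days this was Itgb1bp1. At 3 days these were Itga11, Itga3, Itga6, Itgb3bp, Itgb4, Itgb5 and Lama3. Between the times these were Itga11, Itga9, Itgal, Itgb1bp1, Itgb1bp2 and Itgb5. The 7 that still passed at 14 days with the block were Itga11, Itgav, Itgax, Itgb5, Itgbl1, Lama5 and Lamb3.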

How the data were processed

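The values deposited by the authors are linear Cy3 intensities, 1 per probe and array, with no scaling between arrays. Intensities of 10 arrays came from Agilent Feature Extraction 10.7.3.1, per the file headers, and 55050 of 55050 single-spot probes had the same value in the table (tolerance 1e-05). Well-above-background flags deposited in the scanner output are a 0 or 1 per spot. The submitters' processing notes list limma with no role or version, and the array design is on mm9, per the file headers.

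Here log2 was taken and each array's 75th percentile over 55482 probes subtracted. A probe was tested where all scanner arrays of 1 or more groups had it well above background (32261 probes). A probe let in by 1 group alone was chosen in part by its level there, which favours a difference from the other groups. The 3 groups shared 1 fit (lmFit, contrasts.fit and eBayes of limma 3.58.1, two-sided, in R 4.3.3). The brightest tested probe stood for a gene. Gene names come from RefSeq (GRCm38.p6) through the accession, since the scanner output used here has no gene name column, and 27138 probes were named. A fold is a lower bound where no scanner array of a group had the probe well above background. Such a bound sets the brighter group's mean against a floor for the dim group, the mean over its scanner arrays of the lowest detected signal or the probe's own, whichever was higher.

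Of the members, 1 is counted but not reported by name here, as are 2 genes of the other lists. The other members are named, and values in every sample are given for the members of each role class with the largest changes past the threshold (up to 4, or 6 for beta and laminin chains) and for members with opposite calls. Of other lists, the up to 3 largest rises and falls are otherwise named. The naming rule for members uses no measured value, but the family to describe and the other lists were chosen with earlier results of these data known. Groups come from the sample titles, which do not state that each array is a separate mouse, so p-values measure the spread between these samples. Replicate numbers did not pair samples: correlations of deviations of same-numbered samples ran from -0.135 to 0.2245. Alternatives were 2 scalings, normexp (offset 50, on median rather than mean signals), 2 filters, array and slide subsets, a replicate block, array weights, group subsets, probe averaging and a 2-fold minimum. The number of arrays limits precision.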

Additional observations from a re-analysis of the deposited data

Results flagged for a closer look

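Among 105 sets of 1 gene in 1 group, 8 had a sample apart from the rest by Dixon's criterion, which chance gives in about 1 in 20 sets. MI 3 days replicate 3 was apart for Itga4 (level 1.47), Itgb7 (1.99), Itgal (-1.08) and Itga9 (2.66, the lowest of its group). The same sample had the highest summed level of macrophage markers (124) and of platelet markers (141, mostly Pf4). MI 14 days replicate 5 was apart for Lama1 (-1.91) and Lama5 (3.64), MI 14 days replicate 2 for Itga1 (1.48) and sham replicate 3 for Lamb1 (4.85).

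Itgb4 differed between the times by 1.12 (limma, adjusted p = 1.02e-05), with every MI 14 days sample above and every MI 3 days sample below every sham sample. Of the probes too dim to test, those of Itga2, of Itgb8 and a second one of Itga4 were each well above background on 1 scanner array after MI and on 0 of 4 sham arrays.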

How the results depend on the processing

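Counts of members past the threshold with 1 array left out ran from 15 to 19 at 14 days, from 25 to 29 at 3 days and from 26 to 27 between them, and those of all probes from 8723 to 10795, 19792 to 21446 and 16509 to 18325. Without MI 14 days replicate 3 there were 15 members at 14 days (10 higher, 5 lower), and without MI 3 days replicate 3 there were 26 at 3 days (15 higher, 11 lower). A 2-fold minimum left 5 members at 14 days, 15 at 3 days and 12 between them (all genes 6.19%, 28.2% and 15.4%). With the slide block on 10 arrays, 7 members (5081 probes) passed at 14 days and 17 (9129 probes) between the times. The same arrays without the block gave 17 (8761) and 20 (12383), and all 14 arrays gave 17 (10492) and 27 (17947). Normexp on the 10 arrays gave 10693 probes between the times. The mean of the 3 Itgam probes reversed its sign to 0.25 at 3 days and -0.34 between the times, since its probes moved in opposite directions. Calls that held in every listed alternative that tested the gene, the 2-fold minimum aside, were counted. They were 7 of 17 at 14 days, 18 of 28 at 3 days and 15 of 27 between them. Lamc3 counts at 3 days and between the times, though the filter for every scanner array well above background left it out.

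The replicate block gave 17 members (10383 probes) at 14 days, 27 (20969) at 3 days and 28 (17841) between them. The numbers share no stated source, and the block ended 1 call, that of Itga3 at 3 days, and added 1, that of Lama1 between the times.

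Some differences that missed the threshold passed under other settings, such as Itgb2 at 14 days in the fit of its 2 groups (adjusted p = 0.012) and Itga8 at 14 days with the percentile over tested probes (0.0405), so a missed call is no sign of equal levels. Only 2 MI 3 days arrays have background flags, which limits statements on dim probes of that group.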
